A study of Homo sapiens with 8 samples.

Results

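In all, 8 inflammatory genes were described: the chemokines CCL20, CXCL8, CXCL2 and CCL2, the interleukin IL11, the adhesion receptor ICAM1, and the inducible enzymes ZC3H12A and PTGS2. They were the members of a named list whose probe set carried a single gene symbol, and all 8 were measured, out of 14884 genes. The members were chosen by the measured RWDD4 minus control difference of these same clones, in which cytokine and NF-kappa-B target genes lay lower with RWDD4, so their differences between the groups are given here as a description, with no test. The cells were PC-3, an established prostate cancer line of human origin that grows without androgen. All clones had gone through the same p-Lenti vector and selection, which the series record spells blastocydin. In the RWDD4 group the vector carried the RWDD4 gene, in clones 17, 24, 5 and 6, and in the control group it was empty, in clones 2, 3, 4 and 5. Each array held the total RNA of 1 clonal isolate, so that the spread within a group is the spread between clones. The promoter that drives the transgene and the time in culture are not stated in the labels or series record.

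Chemokines are small secreted proteins that draw leukocytes along a gradient, and epithelial tumour cells make several of them. Their genes are classical targets of NF-kappa-B, a family of transcription factors held in the cytoplasm by I-kappa-B proteins until a kinase complex, IKK, marks the inhibitors for destruction. PC-3 is known for constitutive NF-kappa-B activity and for secreting CXCL8. Several targets of the pathway feed back on it or on its products, among them ZC3H12A, whose protein degrades the messenger RNA of inflammatory cytokines.

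The promoters of the members whose window held a kappa-B element are shown first, because such elements are what NF-kappa-B binds. RefSeq windows on GRCh38.p14 were found for 7 of the 8 members (not CCL2), and the 250 bases before the start of the gene were searched on both strands. The motifs were the kappa-B consensus, the shorter kappa-B form GGANNNTCC, which can overlap it, and the AP-1 site TGANTCA. The consensus lay in the windows of CCL20 (bases 79 to 70 before the start, on the reverse strand) and CXCL2. In CXCL2 it matched at bases 78 to 69 and, on the reverse strand, at bases 77 to 68. The shorter form lay in those of CXCL8 (bases 91 to 83), ICAM1 (bases 186 to 178) and CCL20 (bases 207 to 199), and in CXCL2, where it fell inside the consensus. The AP-1 site lay in CXCL8 (bases 137 to 131) and in IL11. The windows are chr2:227813592-227813841 on the plus strand for CCL20, chr4:73740319-73740568 on the plus strand for CXCL8, chr4:74099196-74099445 on the minus strand for CXCL2 and chr19:10270870-10271119 on the plus strand for ICAM1. They are printed 5′ to 3′ toward the gene, with capitals on kappa-B and AP-1 matches.
CCL20: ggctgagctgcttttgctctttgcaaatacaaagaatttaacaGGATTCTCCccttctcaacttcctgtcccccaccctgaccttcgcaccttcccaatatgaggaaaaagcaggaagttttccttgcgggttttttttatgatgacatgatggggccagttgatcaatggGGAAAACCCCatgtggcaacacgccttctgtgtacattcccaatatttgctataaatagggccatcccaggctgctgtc
CXCL8: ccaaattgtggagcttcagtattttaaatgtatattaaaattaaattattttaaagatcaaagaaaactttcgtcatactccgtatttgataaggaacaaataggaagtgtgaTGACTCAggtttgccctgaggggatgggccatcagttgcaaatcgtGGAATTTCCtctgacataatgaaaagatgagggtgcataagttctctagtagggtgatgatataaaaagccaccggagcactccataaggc
CXCL2: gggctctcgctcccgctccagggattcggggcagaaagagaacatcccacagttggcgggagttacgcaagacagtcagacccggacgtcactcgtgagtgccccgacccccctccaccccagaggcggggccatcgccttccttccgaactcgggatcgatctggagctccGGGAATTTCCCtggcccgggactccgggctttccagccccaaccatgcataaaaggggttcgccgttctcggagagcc
ICAM1: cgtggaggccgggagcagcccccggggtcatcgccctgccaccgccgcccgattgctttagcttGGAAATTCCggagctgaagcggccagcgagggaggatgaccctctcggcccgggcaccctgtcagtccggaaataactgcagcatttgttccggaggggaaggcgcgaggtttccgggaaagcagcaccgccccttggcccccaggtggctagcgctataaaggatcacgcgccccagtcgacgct

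Of the 7 members with a window, 4 held either kappa-B form, and 15.3% of the 15843 protein-coding promoters in the table did so. No match to either form lay in the windows of IL11, ZC3H12A and PTGS2. The list was one of inflammatory chemokines and NF-kappa-B targets, so nothing about these clones is read from that share. The consensus alone was in 10.9% of them, the shorter form in 8.12% and the AP-1 site in 5.04%. A TATAAA box, which positions the start of transcription, was in 5 of the 7 windows and in 9.23% of all promoters. The half-site TGACG, which CREB and ATF proteins bind, was in 4 of the 7 and in 25.6% of all. A match describes the letters only, and binding was not measured in these clones.

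CCL20, which draws dendritic cells and T cells through the receptor CCR6, had the largest difference of the set. On the log2 scale it lay at 6.85, 5.82, 7.45 and 6.12 in control clones 2, 3, 4 and 5, and at 4.20, 4.50, 4.50 and 4.29 in RWDD4 clones 17, 24, 5 and 6. Every RWDD4 clone was below every control clone, with 1.32 log2 units between the nearest clones of the groups. The means were 6.56 ± 0.73 in the control clones and 4.37 ± 0.15 in the RWDD4 clones (SD, n = 4 each). The difference of -2.19 (SE 0.29), or 4.56-fold lower, ranked 5 from the lowest of all genes. The RWDD4 clones lay close together and under 4.92, the median of all values in the table, while the control clones ranged over 1.62 units. No background level was measured, so how far CCL20 lay above background in the clones of either group was not determined. The median is no mark of background: KLK3, a gene fixed as low or absent in PC-3, averaged 5.81 in the control clones and 5.76 in the RWDD4 clones.

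CXCL8, or interleukin 8, attracts neutrophils through the receptors CXCR1 and CXCR2. Its values were 7.15, 7.45, 8.18 and 7.74 in control clones 2, 3, 4 and 5, and 5.42, 6.61, 5.88 and 6.75 in RWDD4 clones 17, 24, 5 and 6. The groups did not overlap, and RWDD4 clones 24 and 6 came nearest to the control clones. The means were 7.63 ± 0.44 and 6.17 ± 0.62 (SD, n = 4 each), a difference of -1.46 (SE 0.30), or 2.75-fold lower with RWDD4. CXCL2, a further ligand of CXCR2, lay at 7.97, 8.16, 8.71 and 8.24 in control clones 2, 3, 4 and 5, and at 7.25, 7.69, 7.28 and 7.40 in RWDD4 clones 17, 24, 5 and 6. In CXCL2 clone 24 was the RWDD4 clone nearest to the control group, which it did not reach, while in CXCL8 it was clone 6. CXCL2 differed by -0.86 (SE 0.16), or 1.82-fold.

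CCL2, which attracts monocytes through CCR2, was the member in which the groups overlapped. Its values were 3.37, 3.36, 4.15 and 3.07 in control clones 2, 3, 4 and 5, and 2.93, 2.70, 3.29 and 2.99 in RWDD4 clones 17, 24, 5 and 6. RWDD4 clone 5 was above control clone 5, and control clone 4 stood above the rest. The difference was -0.51 (SE 0.21) with all clones and -0.29 without control clone 4. All values lay under the median of the table, and whether CCL2 lay above background in any clone was not determined.

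**Figure D1:**
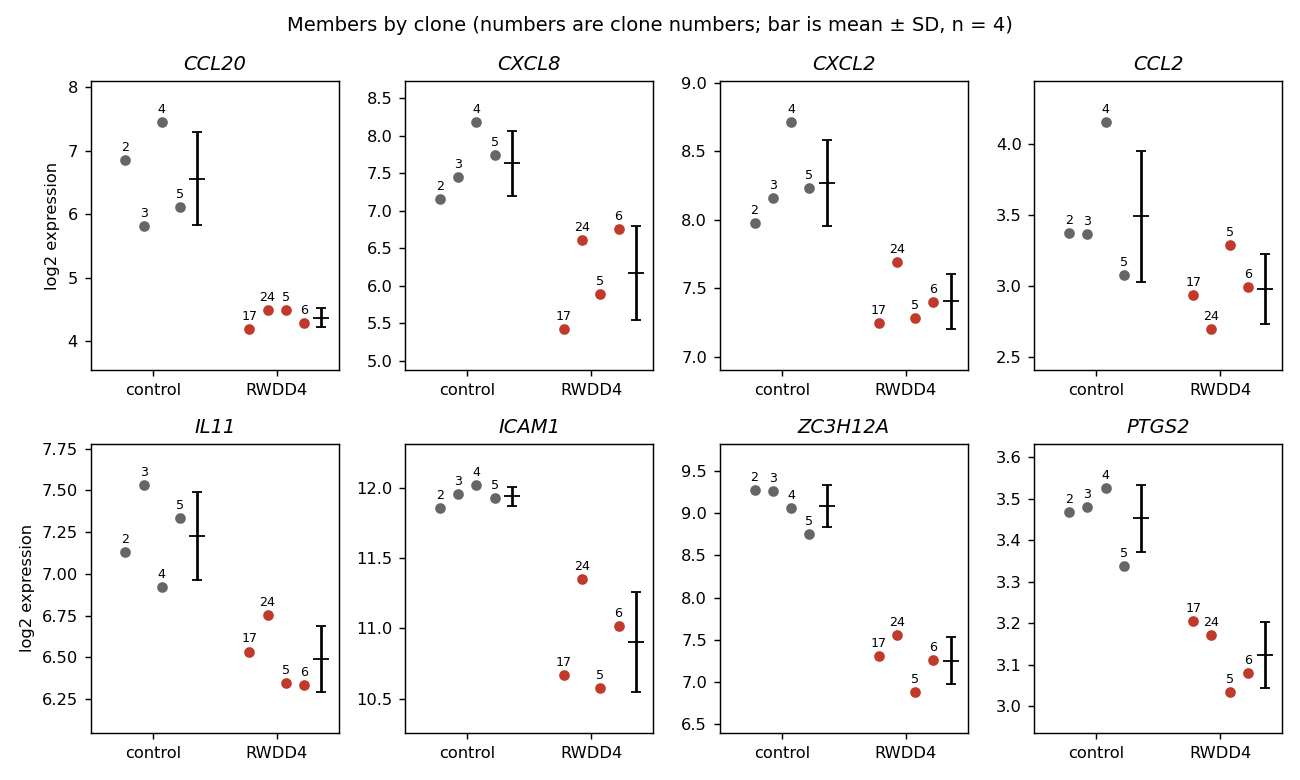
Log2 expression of the 8 members in each clone, with 1 panel per gene and its own axis. Grey points are the 4 control clones and red points the 4 RWDD4 clones, the number at each point is the clone number, and bars are the mean ± SD (n = 4). The groups overlap in CCL2 and in no other panel, and CCL20 lies at 4.20 to 4.50 in the RWDD4 clones against 5.82 to 7.45 in the control clones.

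IL11, a cytokine of the interleukin 6 family known for its part in bone metastasis, lay at 7.13, 7.53, 6.92 and 7.34 in control clones 2, 3, 4 and 5. In RWDD4 clones 17, 24, 5 and 6 it lay at 6.54, 6.75, 6.35 and 6.33. The groups did not overlap, but only 0.17 units parted control clone 4 from RWDD4 clone 24. The difference was -0.74 (SE 0.14), or 1.67-fold. ICAM1, the surface receptor that leukocyte integrins grip, lay at 11.85, 11.96, 12.02 and 11.93 in control clones 2, 3, 4 and 5, a range of 0.16 units. In RWDD4 clones 17, 24, 5 and 6 it lay at 10.67, 11.35, 10.58 and 11.01, a range of 0.77 units. ICAM1 was thus even among the control clones and uneven among the RWDD4 clones, the opposite of CCL20. The difference in ICAM1 was -1.03 (SE 0.15), or 2.05-fold.

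ZC3H12A, the nuclease that degrades cytokine messages, was at 9.28, 9.26, 9.06 and 8.75 in control clones 2, 3, 4 and 5, and at 7.31, 7.56, 6.88 and 7.25 in RWDD4 clones 17, 24, 5 and 6. The gap of 1.19 units between the nearest clones of the groups was larger than the range within either group. Its difference of -1.84 (SE 0.16), or 3.57-fold, ranked 10 from the lowest. PTGS2, the inducible cyclooxygenase that makes prostaglandins, was at 3.47, 3.48, 3.52 and 3.34 in control clones 2, 3, 4 and 5, and at 3.21, 3.17, 3.03 and 3.08 in RWDD4 clones 17, 24, 5 and 6. The groups did not overlap. The difference was only -0.33 (SE 0.09), and all values were under the median of the table.

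All 8 members thus lay lower in the RWDD4 clones on average, with a median difference of -0.95, and in 7 of them the groups did not overlap. Among all 14884 genes the median difference was -0.08, and in 21.1% every RWDD4 clone lay below every control clone. These counts come from the contrast that chose the members, and nothing is read from them. Of genes outside the set, rose and fell are written below for an adjusted p under 0.05 by limma, which 46.7% of all genes passed, 21.6% lower and 25.1% higher. In bulk RNA, fewer cells that express a gene and less of its RNA per cell cannot be told apart.

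Within each group the members did not rank the clones alike. Control clone 4 was the highest control clone for 6 members (CCL20, CXCL8, CXCL2, CCL2, ICAM1 and PTGS2) and the lowest for IL11. RWDD4 clone 24 was the highest of its group for 5 members (CCL20, CXCL2, IL11, ICAM1 and ZC3H12A), although in CCL20 it matched clone 5 to the second decimal. RWDD4 clones 17 and 5 were each the lowest of their group for 3 members, and so were control clones 2 and 5.

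After each value was centred on the mean of its group, the members could be compared over all 8 clones. Over the 28 pairs of members Pearson's r ran from -0.77 to 0.79, with a median of 0.26. CXCL8 and CXCL2, which share a receptor and a gene cluster, formed the highest pair at 0.79, and ZC3H12A with PTGS2 reached 0.76. CCL20 and CCL2 were at 0.71, while IL11 ran against both, at -0.75 with CCL20 and -0.77 with CCL2. CCL20 ranged over 1.62 units in the control clones and 0.30 in the RWDD4 clones. Its r with CCL2 and with IL11 thus rests mostly on the control clones, and neither is shown to hold among the RWDD4 clones. Control clone 4 alone stood 0.89 above its group's mean in CCL20 and 0.66 above it in CCL2. With the mean of all 8 members, CXCL2 had an r of 0.91, CXCL8 of 0.78, ICAM1 of 0.72 and IL11 of -0.27. Each member counts in that mean itself, so its r is not comparable with that of a gene outside the set. The protein-coding genes outside the set that followed this mean most closely were PODXL2 (0.97), DES (0.95) and EHD4 (0.95). The most opposite were TMIE (-0.98), EBF2 (-0.97) and ZNF70 (-0.96). These values are descriptions over 8 clones whose arrays were normalized together, and they were picked as extremes of all genes.

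**Figure D2:**
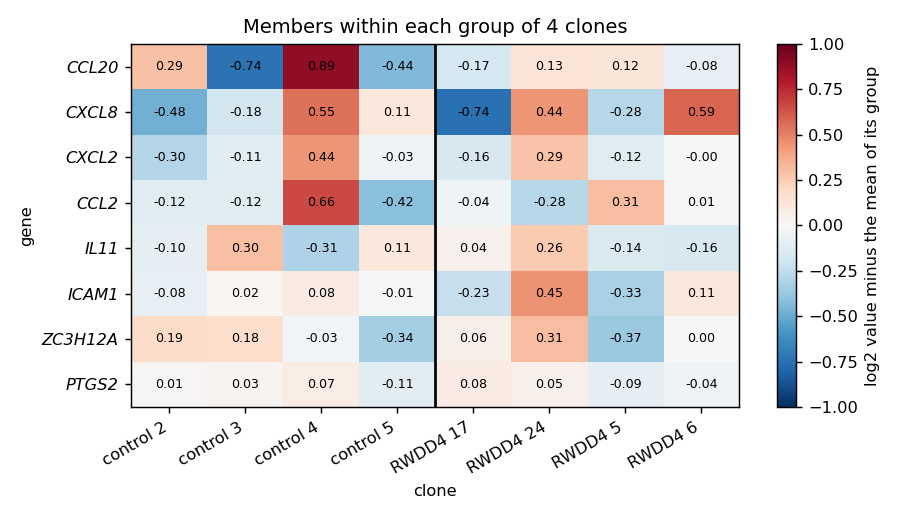
Log2 value of each member in each clone minus the mean of its group of 4 clones, with the number printed in each cell; red is above and blue below that mean, and the black line parts control from RWDD4 clones. Control clone 4 is above its group's mean by 0.89 in CCL20 and by 0.66 in CCL2, and at -0.31 in IL11.

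The members are short genes, and on these arrays differences followed gene length. Ranked among 11916 protein-coding genes by genomic span, they lay between the percentiles 3.66 (CCL2) and 35.3 (ICAM1). Of the 3768 protein-coding genes within the members' range of span, 36.9% fell and 12.3% rose, with a median difference of -0.21, and in 34.7% every RWDD4 clone lay below every control clone. When the trend over span had been taken out of every array, the members' median difference was -0.82, and the groups did not overlap in 7 of the 8. CCL20 then lay at -1.99, ZC3H12A at -1.70 and CXCL8 at -1.27, while PTGS2 moved from -0.33 to -0.18 and CCL2 from -0.51 to -0.32.

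The clones also differed along a leading axis of variation within the groups. On it the control clones lay at -1.77 to -0.37 and the RWDD4 clones at 0.60 to 1.09, so position on the axis and group ran together. The axis was found from values centred within each group, but the clones were placed on it by values not so centred. Position therefore holds part of the group difference itself, which the fit with this covariate takes out of every gene. With that position as a covariate, 1 gene of all 14884 passed and 1910 had an unadjusted p under 0.05. Under the same fit the members' median difference was -1.07, with a median SE of 0.34 against 0.16 without the covariate. Every member lay below 0, from which nothing is read, as the members were chosen for lying lower in these clones. CXCL8 moved to -2.18 (SE 0.61) and CXCL2 to -1.10 (SE 0.34). CCL20 moved the other way, to -1.39 (SE 0.59), and ZC3H12A to -1.35 (SE 0.31). ICAM1 stayed at -1.03 (SE 0.34), while PTGS2 was at -0.21 (SE 0.18) and CCL2 at -0.58 (SE 0.47).

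**Figure D3:**
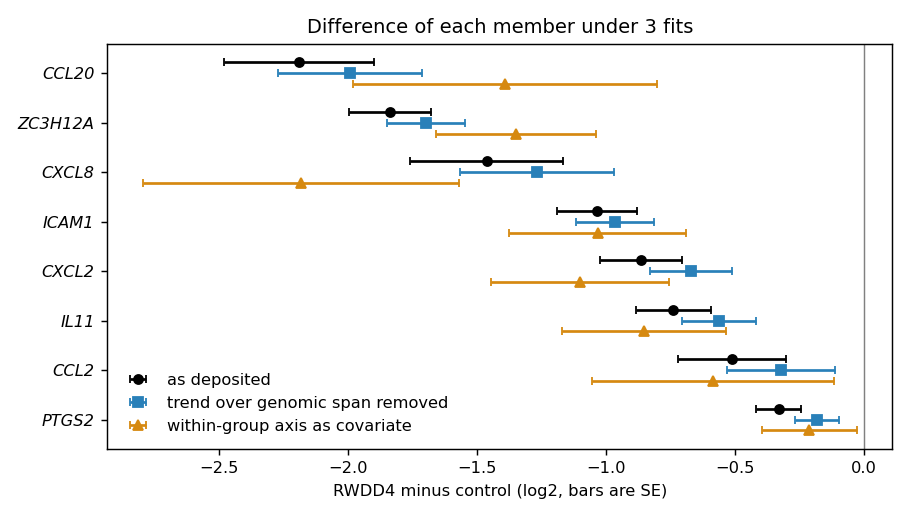
Difference between RWDD4 and control clones for each member in log2 units, with bars for the SE, as deposited (black circles), after the span trend was taken out (blue squares) and with axis position as a covariate (orange triangles). All 24 points lie below 0, and the SE is wider with the covariate.

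CXCL8 and CXCL2 stand in the CXC chemokine cluster of chromosome 4, whose other genes were taken here by their place in the gene order. CXCL3, next to CXCL2 and a ligand of the same receptor, fell by 0.78 (SE 0.15; limma adjusted p 0.00211), from 6.57, 6.43, 6.25 and 6.33 in control clones 2, 3, 4 and 5 to 5.73, 5.61, 5.17 and 5.95 in RWDD4 clones 17, 24, 5 and 6. CXCL5 and CXCL6, further neutrophil attractants, lay at -0.99 (SE 0.41) and -0.55 (SE 0.25) and did not pass, at adjusted p 0.0685 and 0.0942. PF4, PF4V1 and PPBP, known as platelet chemokines, lay at 0.04, -0.21 and -0.13 and did not pass either. Of the 6 measured genes of the cluster outside the members, CXCL3 was the 1 that passed. Around all 8 members, 22 of the nearest 2 protein-coding genes on each side were measured, and 5 of them fell and 3 rose, against 21.6% and 25.1% of all genes.

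**Figure D4:**
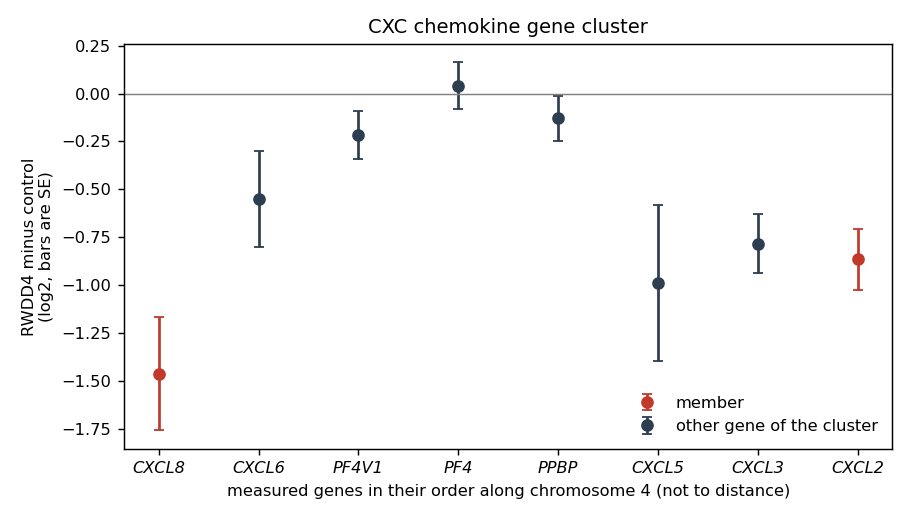
Difference between RWDD4 and control clones in log2 units, with bars for the SE, for the measured genes from CXCL8 to CXCL2 in their order along chromosome 4; red points are members and dark points the other genes. CXCL3, CXCL5 and CXCL6 lie between -0.99 and -0.55, and PF4, PF4V1 and PPBP between -0.21 and 0.04.

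The surrounding pathway was followed through 12 lists with 170 genes, of which 110 were measured. In all, 41 of them fell and 21 rose, against 21.6% and 25.1% of all genes, and their median difference was -0.19. With axis position as covariate 0 of the 110 passed by limma, and 19 had an unadjusted p under 0.05. The members were chosen because cytokine and NF-kappa-B target genes lay lower in this contrast, so the counts of such genes are no independent evidence of their direction. All 5 NF-kappa-B subunits passed, in both directions. NFKB2, the precursor of the non-canonical subunit, fell by 0.83 (SE 0.14; adjusted p 0.000792) from 8.99, 8.90, 8.73 and 8.57 in control clones 2, 3, 4 and 5 to 7.78, 8.30, 7.79 and 7.99 in RWDD4 clones 17, 24, 5 and 6. Its partner RELB fell by 0.61 and RELA, the main activating subunit, by 0.32, while REL rose by 0.66. NFKB1 rose by 0.31 (adjusted p 0.0423) but passed neither after quantile normalization (adjusted p 0.334) nor with the span trend removed (0.774), nor with an intensity trend in eBayes (0.0536). It did not pass without any 1 of the RWDD4 clones or of control clones 2 and 4 either (0.0597 to 0.0921). With all probe sets as features 1 of the 5 subunits rose. RELA did not pass with the span trend removed (adjusted p 0.0858). BCL3, an I-kappa-B relative that works in the nucleus and the only measured gene of its list, fell by 0.68.

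Of 16 measured IKK kinases and signal adaptors, 9 rose and 3 fell, against 25.1% and 21.6% of all genes. Their median difference was 0.53, or 0.20 with axis position as covariate. MALT1, a protease that relays antigen receptor signals and also cleaves ZC3H12A, rose by 2.09 (SE 0.32; adjusted p 0.000511), the kinase MAP3K7, or TAK1, by 1.61, and RIPK2, which relays bacterial sensing, by 1.48. MALT1 lay at 5.26, 6.82, 6.43 and 7.05 in control clones 2, 3, 4 and 5 and at 8.45, 8.21, 8.48 and 8.78 in RWDD4 clones 17, 24, 5 and 6. Clone 2, the control clone farthest out on the within-group axis, was the lowest for all 3 genes. In the fit with axis position as covariate MALT1 was at 0.11, MAP3K7 at 0.53 and RIPK2 at 0.56, and none of the 3 passed. Among the ubiquitin editors of the pathway 5 of 9 fell and 3 rose, against 21.6% and 25.1% of all genes. Their median of -0.30 was -0.46 after quantile normalization and 0.03 with axis position as covariate. TNIP1, a partner of the inhibitory enzyme A20, fell by 1.24, while the ligase BIRC2 and the deubiquitinase CYLD rose by 1.60 and 0.93.

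**Figure D5:**
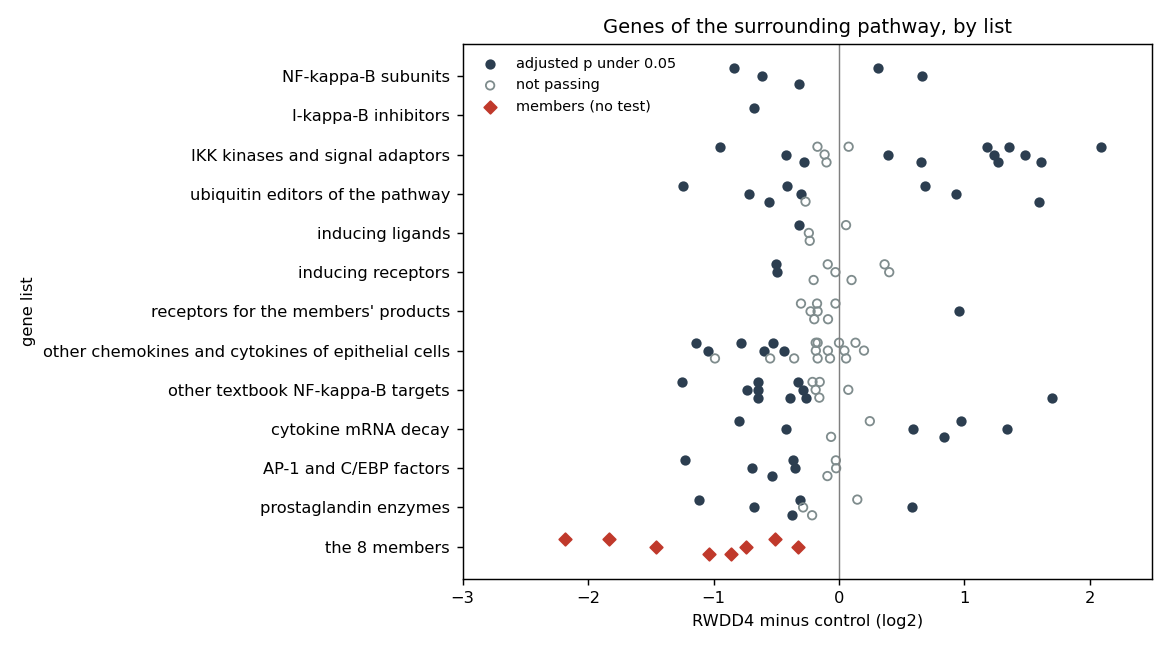
Difference between RWDD4 and control clones in log2 units for the 110 measured genes of 12 pathway lists, 1 row per list, with filled points at an adjusted p under 0.05 (limma) and open points otherwise; red diamonds in the last row are the 8 members, for which no test is given. In the row of IKK kinases and signal adaptors 9 genes lie higher and 3 lower among the filled points, and in the row of other targets 1 and 9.

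Ligands and receptors that switch the pathway on gave few calls, while 21.6% of all genes fell and 25.1% rose. Of 4 ligands measured IL1RN, an antagonist of the interleukin 1 receptor, fell by 0.32. It failed the test under each of the 3 other scalings, and without RWDD4 clones 17, 5 or 6 or control clones 3, 4 or 5 (adjusted p 0.0527 to 0.132 over these). None of the 4 ligands fell with all probe sets as features. TNF lay at -0.23 and did not pass (adjusted p 0.0693). Of 8 receptors the interleukin 17 receptor subunits IL17RA and IL17RC fell by 0.50 each and none rose, though 1 rose under each of the 3 other scalings and without control clone 3, and 2 rose without RWDD4 clone 17. Neither of these 2 passed without RWDD4 clone 5 (adjusted p 0.0533 and 0.0548), and IL17RA did not pass without clone 17, nor IL17RC without clone 6. Among 8 receptors for the members' own products PTGER4, a receptor for prostaglandin E2, rose by 0.96, and none fell. CCR6 and CXCR2, which bind CCL20 and the CXCR2 ligands, lay at -0.20 and -0.03, neither past the test, and CXCR2 turned sign with the scaling. CCR6 passed without control clone 2 (adjusted p 0.0365), with array weights (0.0368) and with the span trend removed (0.0329). With the span trend removed 3 genes of this list fell, and without RWDD4 clone 5, 2 fell.

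Other outputs of the pathway were described with the same limit on their direction. Among 20 further chemokines and cytokines 6 fell and none rose, against 21.6% and 25.1% of all genes and against 36.9% and 12.3% of protein-coding genes in the members' range of span. Their median difference of -0.18 became -0.05 once the span trend was taken out, where 5 fell and 1 rose, and was -0.11 under cyclic loess. IL32, an inflammatory cytokine, fell by 1.14 (SE 0.24), CSF3, the growth factor of granulocytes, by 1.05 (SE 0.10) and CXCL3 as given above. CSF3 lay at 7.75, 7.88, 8.02 and 8.15 in control clones 2, 3, 4 and 5 and at 6.94, 6.80, 6.89 and 6.98 in RWDD4 clones 17, 24, 5 and 6. The nearest clones of the groups were 0.76 units apart. Among 15 other textbook targets of NF-kappa-B 9 fell and 1 rose (median -0.29), against 21.6% and 25.1% of all genes. The iron-binding LCN2 fell by 1.25 and the transcription factor IRF1 by 0.73, while the survival gene BCL2A1 rose by 1.70. The textbook targets therefore did not move in 1 direction.

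Genes that act on the members' messages or at their promoters were also counted. Among 8 genes of cytokine mRNA decay 4 rose and 2 fell, against 25.1% and 21.6% of all genes. Their median of 0.42 was 0.21 with the span trend removed, where 3 rose, and -0.11 with axis position as covariate. RC3H2 and RC3H1, the Roquin proteins that degrade some of the same messages as ZC3H12A, rose by 1.34 and 0.97, and the ZC3H12A relative ZC3H12C rose by 0.84 but lay at -0.54 in the fit with axis position as covariate. The 2 genes of the list that fell, named after their values were seen, were ARID5A, which stabilizes some of these messages, by 0.80 and a further relative, ZC3H12D, by 0.42. The relatives of ZC3H12A thus did not move in 1 direction. Of the AP-1 and C/EBP list 8 genes were measured, all of them AP-1 or ATF genes and none a C/EBP gene. Of these 5 fell and none rose (median -0.36), against 21.6% and 25.1% of all genes. JUNB lay at -1.23, JUND at -0.70 and ATF3 at -0.54, and JUN lay at -0.02, a value that turned sign with the scaling. With the span trend removed 3 of the 8 fell, and their median was -0.18. With all probe sets as features 4 of the 8 fell. ATF3 did not pass after median centring or cyclic loess, nor without RWDD4 clones 24, 5 or 6 or control clones 3 or 4 (adjusted p 0.0643 to 0.114 over these). Among 8 prostaglandin enzymes 4 fell and 1 rose (median -0.30), against 21.6% and 25.1% of all genes. PTGES, which acts downstream of PTGS2, fell by 1.11 (SE 0.26) although its groups overlapped, PTGES2 fell by 0.67 and PTGES3 rose by 0.58. PTGES3 did not pass when its probe set with the lowest mean stood for it (adjusted p 0.475).

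RWDD4 itself was read by 1 probe set and rose 7.67-fold, by 2.94 (SE 0.25; limma adjusted p 5.98e-05; exact permutation p 0.0286, two-sided, the smallest that 4 against 4 clones allow). The medians of the arrays lay between 4.89 and 4.96 and did not overlap between the groups. The SD over all probe sets of an array did not overlap either, at 2.10 to 2.15 in the control and 2.19 to 2.21 in the RWDD4 arrays. Of the epithelial markers fixed for PC-3, 5 of 6 were measured. KRT18 had means of 11.01 and 10.61 in control and RWDD4 clones, KRT19 10.78 and 10.24 and KRT8 6.78 and 6.50, and all 3 keratins fell. VIM, a filament protein of mesenchymal cells that PC-3 is known to express, rose from 7.98 to 8.71, and EPCAM was at 6.40 and 6.53 and did not pass (adjusted p 0.520). Of 7 leukocyte markers 2 were measured, CD14 and CD68, and both fell (adjusted p 0.0159 and 0.0488). CD14 averaged 4.51 in the control and 4.09 in the RWDD4 clones, under 4.92, the median of all values, and CD68 averaged 10.60 and 10.21. Of 5 genes fixed as low or absent in PC-3, 1 was measured, KLK3, which averaged 5.81 and 5.76 and did not pass (adjusted p 0.766). Of 6 fibroblast and endothelial markers 2 were measured. PECAM1 averaged 5.57 and 5.44 and did not pass (adjusted p 0.345), and VWF fell from 4.84 to 4.53 (adjusted p 0.0350). Each array held the RNA of 1 PC-3 clone, so the values are those of PC-3 cells. The part of these genes in the members' difference was not tested.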

How the data were processed

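Log2 values deposited by the authors were used, 1 per probe set and array (53617 probe sets, 8 arrays); Partek and RMA are the tools in the submitters' processing notes, with no version or settings, and the genome build is not given in the sources used here. RMA normalizes arrays to each other, so values compare a gene between clones and not genes with each other. The annotation gave 16098 probe sets 1 symbol and left 37519 unlisted. The probe set with the highest mean stood for each of 14884 genes; each member had 1 probe set. Symbols, genomic span and gene order came from a RefSeq table (GRCh38.p14). RWDD4 minus control was fitted for all genes with lmFit and eBayes of limma 3.58.1 (R 4.3.3), two-sided, with Benjamini-Hochberg adjustment, no filter and a threshold of 0.05, after a test on simulated data. Precision is limited by there being 8 arrays.

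The members and lists were chosen with earlier results of these data known. Named were the 8 members, RWDD4, up to 3 changed genes per list with the largest difference, a fixed set of pathway genes, and the 3 genes most like and most unlike the members. Alternatives were 11 other settings and leaving out each clone; the lowess span was 0.3.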

Additional observations from a re-analysis of the deposited data

Results flagged for a closer look

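Among 100 groups of 4 clones looked at (the named genes, each in both groups), 5 held a clone that stood far from the other 3 for the spread of its group, and chance alone gives about 1 in 20. RWDD4 was lowest in RWDD4 clone 6, at 9.87 against 10.42 to 10.46 in the other RWDD4 clones. BIRC2 and IRF1 were both highest in RWDD4 clone 24, at 7.19 against 6.12 to 6.27 and at 6.82 against 6.19 to 6.28. IL17RA was highest in control clone 5, at 9.53 against 8.87 to 8.94, and CCR6 lowest in control clone 2, at 5.01 against 5.20 to 5.23. No member of the set had such a clone.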

How the results depend on the processing

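The members' median difference of -0.95 ranged from -1.08 to -0.82 over the alternatives that gave it, and from -1.07 to -0.87 with each clone left out. All 150 member differences computed under the alternatives were below 0. The count of members without overlap was 7, and 7 to 8 with a clone left out. The members were chosen for lying lower in these same clones, so nothing is read from these signs and counts. The filter on the mean level removed CCL2 and PTGS2, so it gave no median over 8. The RWDD4 difference was 2.70 to 3.15 with a clone left out, where 5630 to 6768 genes and 54 to 60 pathway genes passed. Taking all probe sets as features, 14153 passed. With axis position as covariate RWDD4 lay at 1.88 (adjusted p 0.159), 1 gene passed in all, and 0 of the 110 pathway genes passed by limma, with 19 at an unadjusted p under 0.05; the cause was not tested. Signs turned under that fit for IL17RC (0.24), PTGER4 (-0.0025), ZC3H12C (-0.54), PTGES3 (-0.11), NFKB1 (-0.18) and JUN (0.32). JUN, which passed nowhere, was also above 0 after median centring (0.023), with array weights (0.038) and once the span trend was taken out (0.17), and lay between -0.11 and 0.063 with a clone left out. CXCR2, likewise never past the test, lay at 0.020 after quantile normalization, 0.018 after median centring, 0.089 after cyclic loess and 0.088 once the span trend was taken out, and between -0.060 and 0.023 with a clone left out. Of 31 named pathway genes that passed, 24 did so in all alternatives other than the axis covariate. Quantile normalization gave 3429 higher and 3694 lower genes, cyclic loess 3980 and 2200, and the fit as deposited 3741 and 3214. No paired analysis was possible because the groups share 1 clone number, which names a clone and links no samples.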
